A study of Rattus norvegicus with 6 samples.

Results

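Ependymal cells, the ciliated epithelium of the brain's ventricles, of rat cerebral hemisphere were picked out by marker genes from single-cell data. A barcode (the tag of 1 droplet) was taken as an ependymal cell if it held at least 1000 unique molecular identifiers (UMIs, 1 per captured transcript) and UMIs of at least 3 of the axonemal and ependymal genes *Adgb*, *Ccdc153*, *Tmem212*, *Dnah12*, *Cfap43* and *Spag17*. It could hold at most 1 of 4 microglial genes (*P2ry12*, *Tmem119*, *Gpr34*, *Cx3cr1*), at most 1 of 3 choroid plexus genes (*Htr2c*, *Folr1*, *Kcnj13*) and at most 1 of 3 oligodendrocyte genes (*Mog*, *Mag*, *Ermn*). *Foxj1*, also named for the rule, was not analysed here. The rule found 336 of 34039 barcodes with at least 1000 UMIs, out of 42293 barcodes in all, and it read the measured counts, so the levels of these marker genes describe the choice and are not a result.

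The study compared 3 droplet libraries (10x Genomics) of control rats, labelled NC, with 3 of rats with acute carbon monoxide poisoning, labelled CO. Per the series description, the CO rats breathed carbon monoxide at 1000 ppm for 40 minutes and then at 3000 ppm for 20 minutes, and more than 60% carboxyhemoglobin together with disturbed consciousness marked severe poisoning. The cerebral hemisphere was digested with trypsin and DNase before cells were captured, and the labels used here give no strain, age or sex. Each group comprised 3 rats, per the same description.

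Ependymal cells line the ventricles as a single layer and carry tufts of motile cilia that move the cerebrospinal fluid. A motile cilium is built on an axoneme of microtubule doublets, along which dynein arms slide. Radial spokes, the central pair and the nexin-dynein regulatory complex coordinate the beat, and intraflagellar transport carries the parts in. Multiciliated cells make their many basal bodies under the regulators GMNC, MCIDAS, MYB and FOXJ1 and the RFX factors, which bind the X-box of cilium gene promoters. Roles given here for single genes are those known for the mammalian proteins.

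Nearly every ependymal barcode had near-copies of itself. Over 2486 genes detected in 2 to 12 of the 336 barcodes, the overlap between 2 barcodes (the cosine of their sets of detected genes, 1 for identical sets) had a median of 0.862 for a barcode's closest partner, 0.813 for the second and 0.0913 for the third. Of 56280 pairs, 306 lay above 0.65 and 0 between 0.45 and 0.65. Linked this way, the 336 barcodes fell into 122 sets of near-copies, called profiles here, 54 of NC and 68 of CO, with 93 sets of 3 barcodes, 28 of 2 and 1 single barcode. Of these sets, 104 spanned more than 1 library and 0 held both groups.

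The copies were close but not identical. Within sets of 3, the range of UMIs had a median of 4.36% of their mean, and of the genes detected in a set 72.7% were detected in all 3 barcodes, 23.7% in 2 and 3.56% in 1. Even counts were also common in these barcodes, with 44508 entries of 6 UMIs against 35744 of 5 and 17243 of 7. The pattern was that of the whole series, in which 6042 of 6250 barcodes examined (96.7%) had a partner above an overlap of 0.6, 4836 of them exactly 2, and 0 of 5468 such links joined the groups. By barcode sequence, 1 barcode was shared over all 15 pairs of libraries.

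**Figure D1:**
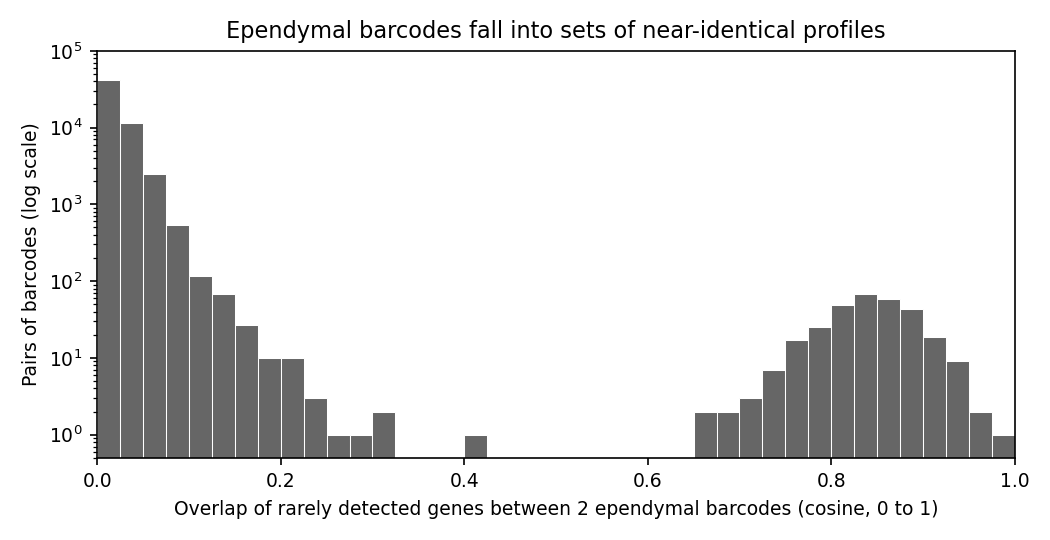
Number of pairs of ependymal barcodes (y axis, log scale) by the overlap of their rarely detected genes (x axis, cosine, no unit). A gap without any pair lies between 0.45 and 0.65, and 306 pairs stand to its right.

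The 3 libraries of a group are therefore not independent, and leaving one out keeps the profiles that span libraries. The variance between library means, over that expected of cells drawn from 1 pool (which gives 1), averaged 0.961 over genes in both NC and CO ependymal cells. Each group was counted as 1 sample (n = 1), and no p-value is given between groups. Library values are shown as a description, not as replicates. Where the libraries of the 2 groups do not overlap, called separate libraries below, this does not repeat the difference, since libraries of a group share near-copies. Levels are counts per 1e6 ependymal UMIs (CPM), scaled with TMM factors in the comparison of groups. Ratios are log2 of CO over NC from the sums of all barcodes. The intervals beside them are 95% exact binomial intervals taken from 1 barcode per profile, that with the most UMIs. They cover counting error only, not differences between cells or rats, and would be wider if the excess of even counts means that molecules were counted more than once, which was not tested.

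The libraries held 39494470 to 47322264 UMIs each. NC ependymal barcodes numbered 53, 39 and 58 in libraries 1 to 3 and CO ones 71, 61 and 54, with 1611943 and 2600187 UMIs in all. Their median was 11980.5 UMIs and 3449.5 genes in NC and 14104.5 UMIs and 3679 genes in CO, above the medians of 5348 and 6041.5 UMIs over all barcodes with at least 1000 UMIs. Androglobin (*Adgb*), a globin of ciliated cells, had a UMI in 94.6% of ependymal barcodes, in 0.671% of the other barcodes, in 1.24% of 805 barcodes with astrocyte markers and in 1.05% of 478 with choroid plexus markers. As the rule used this gene, its detection describes the choice, and cilium genes outside the rule are given below.

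Most members lay well inside the rule. All 6 marker genes were detected in 76 NC and 131 CO members, and only 3 in 13 NC and 5 CO members, which had medians of 4860 and 5900 UMIs. Just outside it, 2 markers were detected in 134 NC and 81 CO barcodes, of which 124 and 70 held at least 2 choroid plexus genes and 9 and 8 met the exclusions. *Folr1*, the folate receptor used as 1 of the choroid plexus genes, was detected in 119 NC and 155 CO members, so a rule without any exclusion gene would keep only 23 NC and 26 CO barcodes.

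Some members also carried markers of other cells, and the groups differed in which. At least 3 of the 5 endothelial markers measured were detected in 0 NC and 20 CO barcodes (8, 8 and 4 by library), which came from 7 profiles and had a median of 21236.5 UMIs. The summed level of the endothelial list was 41 to 49 CPM among NC libraries and 531 to 683 CPM among CO libraries. *Cldn5*, the claudin of the blood-brain barrier, was at 8.21, 9.31 and 9.84 CPM across NC libraries and 326, 151 and 281 CPM across CO libraries, and at 8.8, 10.8 and 10.4 CPM across NC libraries and 4.14, 13.4 and 10.7 CPM across CO libraries without barcodes carrying other cells' markers. Microglial markers (at least 3) were seen in 3 NC and 12 CO barcodes, pericyte markers in 0 and 6, oligodendrocyte markers (at least 4) in 5 and 0, and erythroid markers in 5 and 2. Macrophage, neutrophil, T and NK cell and B cell lists had no gene with at least 30 counts. Left out with their near-copies, these barcodes numbered 16 in NC (6 profiles) and 32 in CO (12 profiles), and 134 NC and 154 CO barcodes remained. Their part in the results below was not tested beyond giving values without them wherever the direction turned or the value moved by more than 1.5 times.

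**Figure D2:**
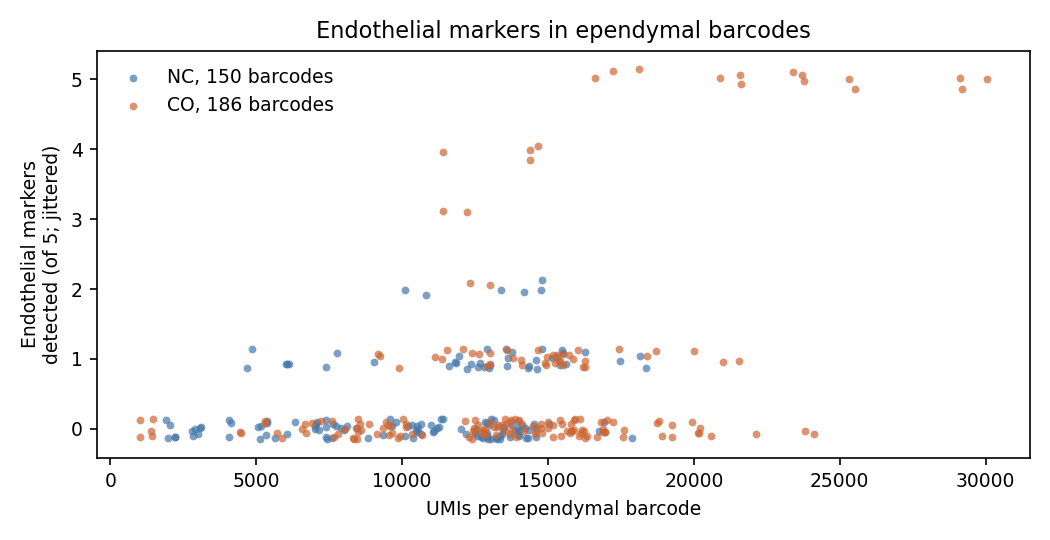
Each point is 1 ependymal barcode, with its UMIs (x axis) against the number of 5 endothelial markers detected (y axis, points spread at random around each whole number). The 20 barcodes with at least 3 markers are all CO, and their median of 21236.5 UMIs lies above the CO median of 14104.5.

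Ependymal cells made up a larger share of the CO barcodes, within the error of counting profiles. They were 0.901%, 0.678% and 0.919% of barcodes with at least 1000 UMIs of the NC libraries and 1.28%, 1.19% and 0.989% of the CO libraries, so the libraries did not overlap. Pooled, the shares were 0.836% (0.708% to 0.980%, exact binomial interval) and 1.16% (0.996% to 1.33%), a ratio of 1.38. With barcodes and members divided by 3 to allow for the copies, the intervals widened to 0.621% to 1.10% and 0.887% to 1.48%, and that of the ratio to 0.937 to 2.05. Thinned to 1000 UMIs per barcode, where 108 NC and 143 CO barcodes still met the rule, the ratio was 1.48.

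Axonemal genes set the ependymal barcodes apart from the others in the same libraries. Levels in this comparison are CPM without TMM scaling, and a comparison of cells chosen by axonemal markers with the rest is a description and no test. Of the 29 genes for axonemal dyneins and their assembly with at least 30 ependymal counts, 25 stood at 10 times or more the level of the other barcodes (median 79.3-fold), as did 27 of 28 genes of the radial spokes, central pair and nexin complex (53.5-fold) and 50 of 54 for tektins, tubulins and axoneme-associated proteins (58.2-fold). Only 7.73% of all 9529 genes compared did so. Intraflagellar transport and BBSome genes, which every cell with a primary cilium uses, were less set apart, with 11 of 37 at 10-fold and a median of 8.94-fold. Genes for water, ion and solute handling (median 1.34-fold) and glial filament and radial glia genes (1.13-fold) were close to the median of all genes, 1.17-fold.

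Among the 20 genes most set apart, outside the rule, were cilium genes and some others. *Stoml3*, a stomatin-like protein of cilia, was at 369 CPM against 0.310 CPM in the other barcodes. *Wdr49*, *Odf3b*, *Ppp1r32*, *Fam216b*, *Cdhr3*, *Drc7* (nexin-dynein regulatory complex), *Dnah6* (an axonemal dynein heavy chain), *Spag16* (central pair) and *Meig1* were also among them, as was *Ccdc78*, which works at the deuterosome where centrioles are amplified. *Hcrt*, the gene of the neuropeptide orexin, was at 1262 CPM against 1.11 CPM, and the ependymal barcodes held 95.0% of its UMIs in the barcodes compared. Scaled, it was at 764, 1294 and 1028 NC CPM and 1495, 1137 and 1722 CO CPM (log2 ratio 0.52, and 0.82 with 1 barcode per profile), and it had UMIs in 64.4% of 320 ependymal barcodes thinned to 4000 UMIs. Hypothalamic neurons are the known source of orexin, and the counts do not show which transcript they came from.

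**Figure D3:**
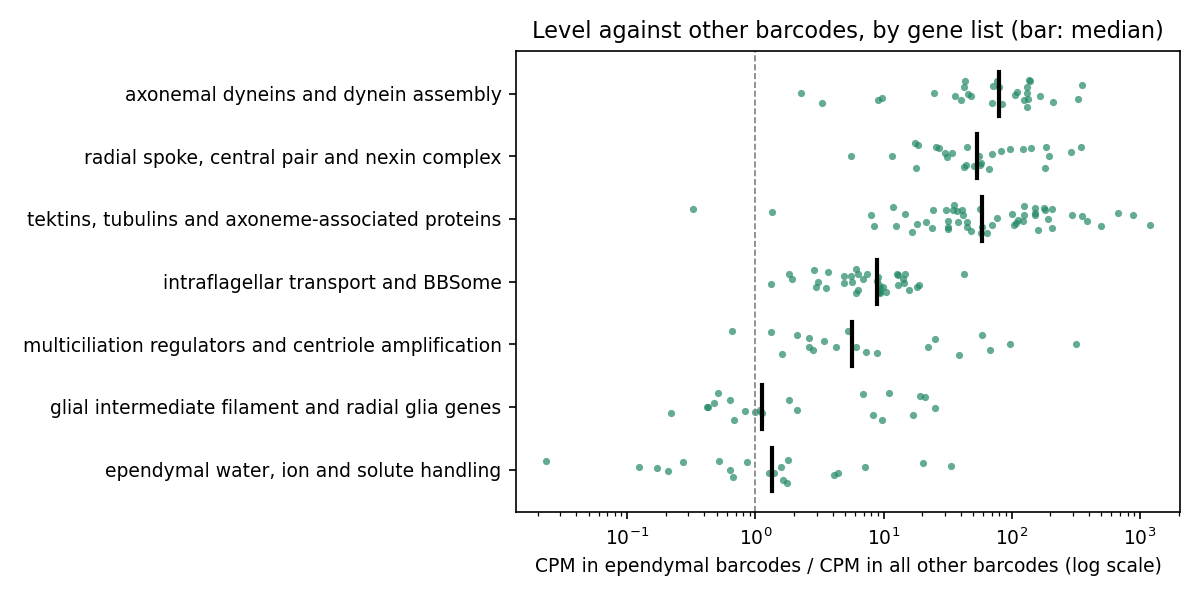
Level in ependymal barcodes divided by that in all other barcodes (x axis, ratio of CPM, log scale), 1 point per gene in 7 gene lists (y axis), with a bar at each list's median. The axonemal lists lie farthest to the right, with medians of 53.5 to 79.3, and the dashed line marks equal levels.

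Partial X-boxes, letters to which RFX factors bind, stood in a minority of the promoters of axonemal genes. GTTGCC followed by any 2 bases and GG was looked for on both strands in 300 bases, 250 before and 50 after the annotated start, of RefSeq promoters (build GRCr8, not that of the counts, Rnor_6.0). It stood in 18 of 93 promoters matched for the 128 genes of the 3 axonemal lists (19.4%) and in 579 of all 27457 promoters in the table (2.11%). Of the 20 genes most set apart, 14 were matched and 0 had it. The 3 below belong to the cilium genes with a site that had the highest ependymal levels, and the capitals mark it. *Dynll1* is a dynein light chain of many complexes, *Dnah11* an outer arm heavy chain and *Spef2* a central pair protein.
*Dynll1* promoter, chr12:46972827-46973126, strand +: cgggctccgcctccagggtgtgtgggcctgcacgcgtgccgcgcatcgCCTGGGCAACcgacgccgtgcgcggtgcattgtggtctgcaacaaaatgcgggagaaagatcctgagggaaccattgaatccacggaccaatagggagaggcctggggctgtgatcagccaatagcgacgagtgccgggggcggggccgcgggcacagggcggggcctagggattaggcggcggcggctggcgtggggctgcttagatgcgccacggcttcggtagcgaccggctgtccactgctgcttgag
*Dnah11* promoter, chr6:145298474-145298773, strand -: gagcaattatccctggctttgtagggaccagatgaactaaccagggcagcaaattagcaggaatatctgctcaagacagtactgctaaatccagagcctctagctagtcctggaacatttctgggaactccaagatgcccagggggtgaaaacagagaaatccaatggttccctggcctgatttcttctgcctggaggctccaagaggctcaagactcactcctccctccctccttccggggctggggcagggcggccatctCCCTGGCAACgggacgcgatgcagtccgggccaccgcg
*Spef2* promoter, chr2:60421801-60422100, strand -: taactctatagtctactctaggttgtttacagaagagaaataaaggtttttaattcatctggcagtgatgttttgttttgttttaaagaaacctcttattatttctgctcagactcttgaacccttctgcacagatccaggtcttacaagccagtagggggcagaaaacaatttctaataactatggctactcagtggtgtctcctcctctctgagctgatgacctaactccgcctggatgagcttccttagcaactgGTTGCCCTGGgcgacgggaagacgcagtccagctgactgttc

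Between CO and NC, the ependymal transcriptome differed in a minority of genes. Of 6675 genes with at least 100 counts over both groups, 561 (8.4%) were at least 2-fold apart. Higher in CO by that much were 311 (4.66%), and lower 250 (3.75%), while 52.2% of the genes had a ratio above 1. Without the barcodes carrying other cells' markers, 222 (3.69%) and 260 (4.32%) of 6023 genes were higher and lower by 2-fold. Of the genes higher with all barcodes, 153 were also in the second count, 49.2% of the first and 68.9% of the second, and of those lower 178 were, 71.2% and 68.5%. Over the 9529 genes with at least 30 counts the median log2 ratio was 0.02, 51.8% had a ratio above 1, 8.78% were 2-fold higher and 6.8% 2-fold lower (7.43% and 8.06% without the barcodes carrying other cells' markers), and the 3 CO libraries lay wholly above the 3 NC ones for 17.3% and wholly below for 14.1%. Counts in the gene lists that follow are over genes with at least 30 counts and are to be read against those shares.

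**Figure D4:**
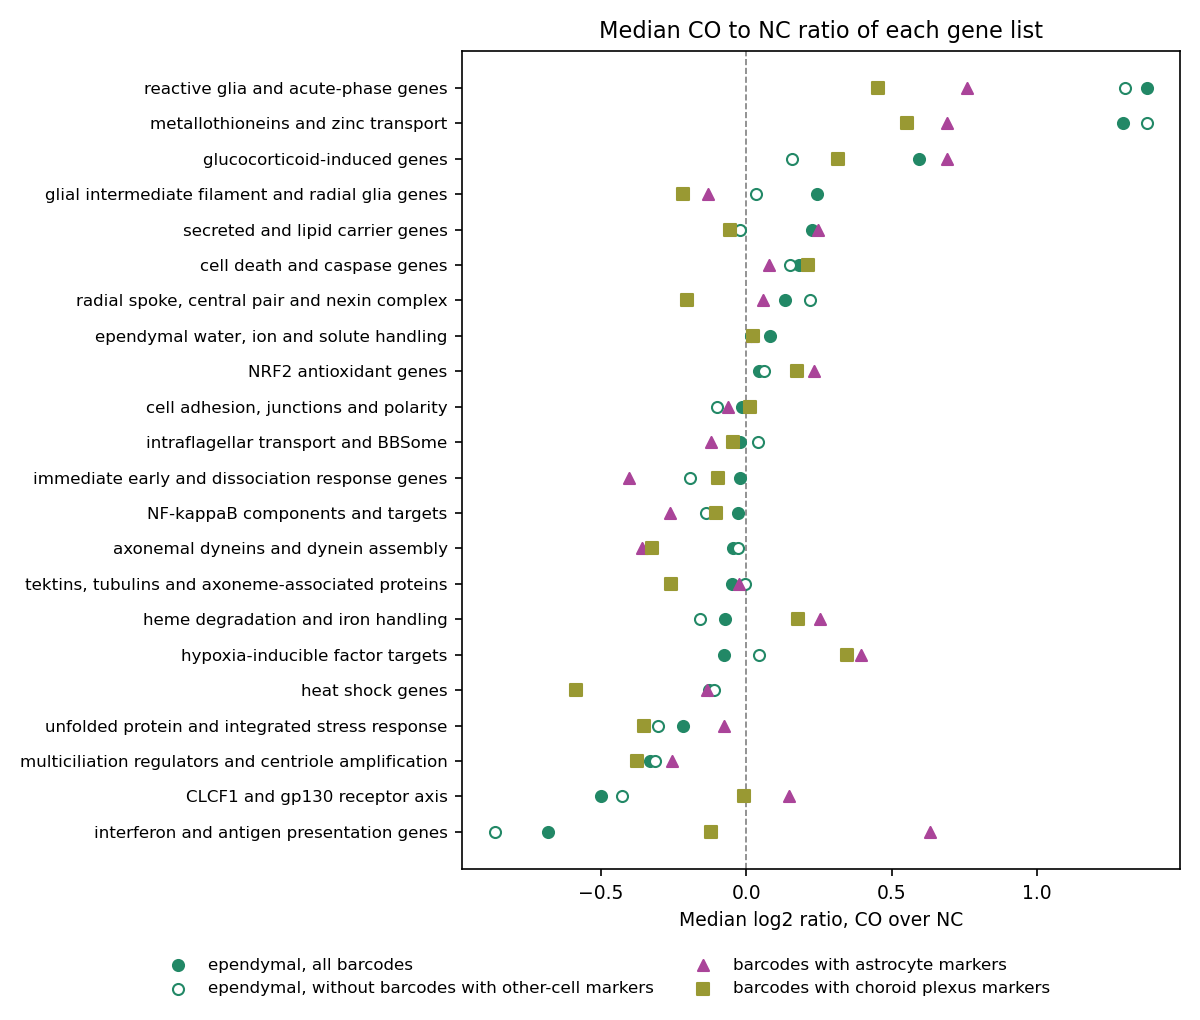
Median log2 ratio, CO over NC, of each gene list (x axis) in ependymal barcodes, with and without the barcodes carrying other cells' markers, and in barcodes with astrocyte or choroid plexus markers. Over all ependymal barcodes, reactive glia genes (1.38) and metallothioneins (1.30) lie farthest to the right, and interferon genes (-0.68) farthest to the left.

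Genes of the motile apparatus differed little as lists. The 29 dynein and assembly genes had a median log2 ratio of -0.05 (12 higher, 17 lower), the 28 radial spoke, central pair and nexin genes 0.13 (17 and 11), the 54 tektin, tubulin and axoneme genes -0.05 (23 and 31) and the 37 intraflagellar transport and BBSome genes -0.02 (18 and 19). Over the 4 lists, 2 genes were 2-fold higher and 2 were 2-fold lower. The libraries did not overlap, CO above NC, for 3, 7, 7 and 3 genes of the 4 lists and, CO below NC, for 4, 3, 6 and 6, shares near those of all genes. The rule markers, which chose the cells, had log2 ratios of -0.18 (*Spag17*) to 0.26 (*Ccdc153*).

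The exceptions were single genes. *Dnaaf3*, a factor that assembles dynein arms in the cytoplasm, was at 283, 226 and 218 CPM across NC libraries and 114, 57.9 and 86.5 CPM across CO libraries (log2 ratio -1.48, interval -2.03 to -1.19). Every CO library was below every NC library. The assembly factor *Dnaaf2* was also lower (-0.62, interval -1.12 to -0.30; 2.59 in the 49 barcodes without any exclusion gene) and *Dnaaf4* was higher (0.70, interval 0.18 to 0.99; 0.07 in the same 49). The inner microtubule protein gene *Ribc1* was higher, at 37.8, 79.1 and 59 NC CPM and 113, 135 and 115 CO CPM (1.10, interval 0.37 to 1.43), while its relative *Ribc2* was lower (-0.63, interval -1.11 to -0.12). *Tubb2a*, a beta-tubulin of many cells, was at 21.4, 6.98 and 16.4 NC CPM and 76.3, 79.2 and 34.3 CO CPM (2.04, interval 0.87 to 3.11). In the spoke list *Nme5* (0.67, interval 0.24 to 1.07), the adenylate kinase *Ak7* (0.46, interval 0.27 to 0.61) and *Rsph10b* (0.45, interval 0.28 to 0.67) were higher with separate libraries, *Nme5* not in those 49 barcodes (-0.01). Of transport genes, *Dync2h1*, the heavy chain of the retrograde motor, was at a log2 ratio of -0.45, with an interval that included 0 (-0.51 to 0.02).

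Regulators of multiciliation were lower as a list. Of 28 genes measured 20 had at least 30 counts, with a median of -0.33, 6 higher and 14 lower. *Gmnc*, *Foxn4* and *Stil* had 0 counts, and *Foxj1* was not analysed, so these regulators could not be read. The CO libraries lay wholly below the NC libraries for 10 of the 20 and wholly above for 0, against 14.1% and 17.3% of all genes, though 0 reached 2-fold. Without the barcodes carrying other cells' markers the median was -0.31, with 7 higher and 13 lower. The CO libraries then lay wholly below for 7 of the 20 and wholly above for 0, against 14.3% and 16.7% of all genes. Libraries of a group share near-copies, so both counts describe the libraries and do not repeat the difference. Over all barcodes, the intervals lay wholly below 0 for 6 of the 20 and wholly above for 2.

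*Rfx3*, an X-box binding factor needed for cilia, was at 780.2, 756 and 833 CPM across NC libraries and 422, 552 and 446 CPM across CO libraries (-0.76, interval -1.10 to -0.74). *Myb*, an early regulator of the multiciliated fate, was at 355, 477 and 495 CPM across NC libraries and 282, 277 and 299 CPM across CO libraries (-0.63, interval -0.90 to -0.41). The libraries were separate for both genes, at a difference of less than 2-fold. *Ccdc78* was at -0.73 (interval -1.17 to -0.32), *Rfx7* at -0.63 (-1.23 to 0.31) and *E2f5*, a factor that works with GMNC and MCIDAS, at -0.78 (-1.69 to -0.11). In barcodes with astrocyte and choroid plexus markers the list had medians of -0.26 and -0.38, so its lower level was not seen in ependymal barcodes alone.

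Metallothioneins were several times higher in CO ependymal cells. These small cysteine-rich proteins bind zinc and copper, and their genes are induced by metals through MTF1 and by glucocorticoids. *Mt1* was at 611, 521 and 572 CPM across NC libraries and 2393, 2747 and 2371 CPM across CO libraries (2.12, interval 1.98 to 2.32). *Mt2A* was at 749, 773 and 815 CPM across NC libraries and 3033, 2911 and 3092 CPM across CO libraries (1.94, interval 1.78 to 2.07). In both genes the CO libraries stood far above the NC libraries, and UMIs of *Mt1* were found in 42 of 54 NC and 66 of 68 CO profiles.

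*Mt3*, the brain metallothionein and the one with the most counts here, differed less between the groups, at 4195, 5255 and 5212 CPM across NC libraries and 6911, 6693 and 6928 CPM across CO libraries. Its log2 ratio was 0.49 over all barcodes and 0.62 with 1 barcode per profile, interval 0.56 to 0.69, and -0.36 in the 49 barcodes without any exclusion gene, where *Mt1* was at 3.09 and *Mt2A* at 1.37. *Slc39a10*, a zinc importer, was at 27.9, 25.6 and 37.7 NC CPM and 83.5, 75.6 and 86.5 CO CPM (1.40, interval 0.43 to 1.92). Of 9 genes of the list 8 had at least 30 counts, of which 7 were higher, 6 with separate libraries and 5 by 2-fold or more, with a median of 1.30 (1.38 without barcodes carrying other cells' markers). *Mt1* and *Mt2A* were also higher in barcodes with astrocyte markers (2.45 and 1.24) and with choroid plexus markers (0.76 and 3.02).

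The promoters of the 3 genes, which lie near one another on chromosome 19, carry the core of the metal response element that MTF1 binds. The letters TGCGCNC, on either strand, stood 3 times in the *Mt1* promoter and 2 times each in those of *Mt2A* and *Mt3*, and at least once in 15.0% of all promoters. The capitals mark them in the RefSeq sequences (GRCr8). The 2 genes with the larger differences and *Mt3* thus share the motif.
*Mt1* promoter, chr19:10832926-10833225, strand -: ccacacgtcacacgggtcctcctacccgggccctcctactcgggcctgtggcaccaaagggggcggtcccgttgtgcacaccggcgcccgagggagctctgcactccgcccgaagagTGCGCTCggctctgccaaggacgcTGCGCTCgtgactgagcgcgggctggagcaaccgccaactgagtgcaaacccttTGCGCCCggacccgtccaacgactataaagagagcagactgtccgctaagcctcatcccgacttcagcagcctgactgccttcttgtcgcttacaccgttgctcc
*Mt2A* promoter, chr19:10838659-10838958, strand -: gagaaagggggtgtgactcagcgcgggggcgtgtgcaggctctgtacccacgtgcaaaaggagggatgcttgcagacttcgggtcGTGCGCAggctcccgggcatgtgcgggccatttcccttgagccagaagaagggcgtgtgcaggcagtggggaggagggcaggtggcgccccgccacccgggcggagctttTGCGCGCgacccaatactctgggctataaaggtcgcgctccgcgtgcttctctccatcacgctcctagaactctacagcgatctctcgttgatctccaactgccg
*Mt3* promoter, chr19:10856031-10856330, strand -: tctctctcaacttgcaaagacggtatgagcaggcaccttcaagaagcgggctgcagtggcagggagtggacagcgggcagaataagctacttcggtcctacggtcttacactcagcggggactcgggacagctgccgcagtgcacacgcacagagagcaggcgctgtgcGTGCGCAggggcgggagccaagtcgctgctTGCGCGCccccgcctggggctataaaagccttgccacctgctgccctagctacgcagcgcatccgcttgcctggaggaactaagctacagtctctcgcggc

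Genes of reactive glia had the highest median of the lists that do not mark other cells, over all barcodes. Of 28 genes 18 had at least 30 counts, 15 were higher in CO and 3 lower, with a median of 1.38, and 10 had separate libraries with CO above NC and 0 with CO below. At least 2-fold higher were 10 and lower 1, against 8.78% and 6.8% of all genes. Without the barcodes carrying other cells' markers the median was 1.30, below that of the metallothionein list. In barcodes with astrocyte markers the median was 0.76 and in those with choroid plexus markers 0.45, so a higher level was not seen in ependymal barcodes alone.

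*Gfap*, the intermediate filament of astrocytes that is also made by ependymal cells under stress, was at 83.8, 16.3 and 207 CPM across NC libraries and 367, 431 and 317 CPM across CO libraries (1.74, interval 1.58 to 2.53). The CO libraries lay above the NC libraries, which differed widely among themselves, and UMIs were found in 16 of 54 NC and 34 of 68 CO profiles. The ratio of *Gfap* was 2.74 without NC library 3 and turned to -1.33 in the 49 barcodes without any exclusion gene. *S100a10*, the annexin A2 partner, was at 69, 86.1 and 86.9 CPM across NC libraries and 333, 377 and 239 CPM across CO libraries (2.0, interval 1.48 to 2.51), and its ratio was 0.58 in those 49 barcodes. *Emp1*, an epithelial membrane protein, was at 1.64, 0 and 8.2 CPM across NC libraries and 93.8, 109 and 65.9 CPM across CO libraries (4.63, interval 3.17 to 11.01). Its UMIs were found in 1 NC profile and 20 CO profiles, and the ratio was 6.55 without NC library 3.

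*Cd14*, a co-receptor for lipopolysaccharide, was at 1.82 (0.70 to 2.38), the protease inhibitor *Timp1* at 1.73 (0.58 to 3.39) and the galectin *Lgals3* at 1.14 (0.73 to 1.35). *Vim*, vimentin, differed little (0.33). *Hspb1* and *Steap4* were high only with the barcodes carrying other cells' markers, since *Hspb1* turned from 1.62 to -0.41 without them (0.85 in the 49 barcodes), and *Steap4*, with counts of 0 in NC, had 107, 17.7 and 0 CPM across CO libraries with them and 0 CPM in CO without them. The glial filament and radial glia list as a whole had a median of 0.24 over 21 genes (13 higher, 8 lower) and 0.03 without those barcodes. In it *Glul*, glutamine synthetase, was higher (1.07, interval 0.73 to 1.85), and the neural stem cell factor *Sox2* was lower (-0.56, interval -0.69 to -0.25) with overlapping libraries. In the 49 barcodes without any exclusion gene *Sox2* turned to 0.21 and *Glul* was at 2.12.

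Further named genes were higher in CO ependymal cells with and without the barcodes carrying other cells' markers. *Tnfrsf12a*, the receptor of the cytokine TWEAK, was at 8.21, 4.65 and 3.28 CPM across NC libraries and 81.4, 86.3 and 76.9 CPM across CO libraries (3.90, interval 2.31 to 6.22). *Tiam2*, an activator of the small GTPase RAC1, was at 3.29, 9.31 and 1.64 CPM across NC libraries and 104, 145 and 118 CPM across CO libraries (4.84, interval 2.86 to 6.75). In both genes each CO library was far above each NC library, and *Tiam2* had UMIs in 2 NC and 33 CO profiles (ratio 5.62 without NC library 2). *Pmepa1*, a target and brake of TGF-beta signalling, was at 23, 6.98 and 11.5 NC CPM and 202, 197 and 154 CO CPM (3.67, interval 3.0 to 5.24; 4.27 without NC library 1), and the growth factor *Hbegf* at 1.64, 2.33 and 1.64 NC CPM and 41.2, 59.1 and 39.8 CO CPM (4.68, interval 2.07 to 9.97).

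The signals and regulators among these genes had few NC counts. *Myc* was at 16.4, 4.65 and 1.64 NC CPM and 30.9, 82.7 and 31.6 CO CPM (2.61, interval 1.33 to 4.05), and the actin crosslinker *Flnc* at 16.4, 0 and 29.5 NC CPM and 88.7, 111 and 92 CO CPM (2.51, interval 1.60 to 3.91). Leaving out 1 library put *Myc* between 1.98 (CO library 2) and 4.06 (NC library 1) and *Flnc* at 3.33 (NC library 3). Without the barcodes carrying other cells' markers the ratios were 4.03 for *Tnfrsf12a*, 3.42 for *Pmepa1*, 2.77 for *Myc* and 2.58 for *Flnc*. In the 49 barcodes without any exclusion gene *Tiam2* was at 3.43, *Pmepa1* at 5.18 and *Flnc* at 3.28. *Kitlg*, the ligand of the receptor KIT, and *Tpm4*, a tropomyosin, had counts of 0 in NC and UMIs in 16 and 14 CO profiles. Taking 3 counts over the group as the floor, *Kitlg* was at least 27.7-fold and *Tpm4* at least 24.9-fold higher over all barcodes, and with 1 barcode per profile by at least 3.01 and 2.93 on the log2 scale. These log2 bounds, 4.79 and 4.64 over all barcodes, were 4.13 and 3.97 without NC library 1, 4.13 and 3.97 without NC library 3, and 3.47 and 3.21 without the barcodes carrying other cells' markers. The difference of *Tnfrsf12a* was 0.71 in barcodes with astrocyte markers and 4.37 in those with choroid plexus markers, and that of *Tiam2* 2.08 and -0.21.

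The 12 genes with the highest ratios among those with separate libraries and outside the lists of other cells were *Srgn*, *Adgrl4*, *Tbc1d4*, *Cyyr1*, *Tiam2*, *Apcdd1*, *Kitlg*, *Esam*, *Fxyd5*, *Hbegf*, *Tpm4* and *Emp1*. Several are known from endothelium or blood cells. Without the barcodes carrying other cells' markers, *Tiam2* (4.89), *Emp1* (4.70) and *Hbegf* (4.25) were as high as before, while *Srgn* went from 6.33 to 0.95, *Adgrl4* from 5.89 to 1.63, *Apcdd1*, at 0 in NC, from a bound of 4.80 to one of 1.95, and *Tbc1d4*, *Cyyr1*, *Esam* and *Fxyd5* were left with few counts in either group. The 12 highest among the remaining barcodes were *Tiam2*, *Emp1*, *Tnfrsf12a*, *Pmepa1*, *Sv2c*, *Lgalsl*, *Myc*, *Nr2c2ap*, *Flnc*, *Ccnd2*, *Pde10a* and *Golim4*.

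**Figure D5:**
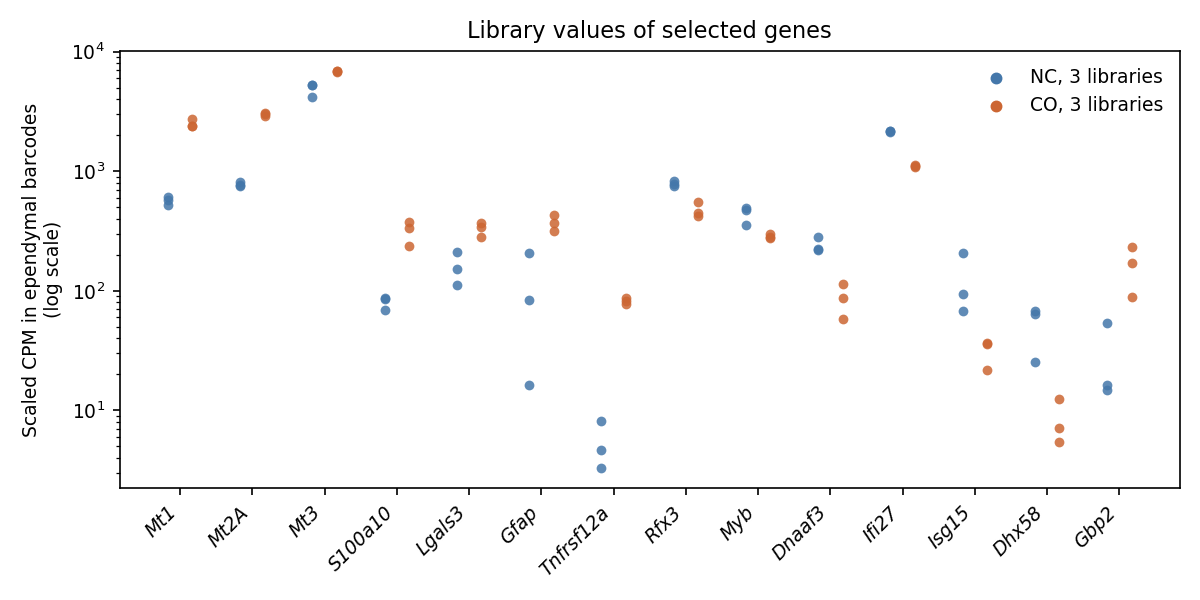
Level of single genes (y axis, scaled CPM, log scale) in ependymal barcodes of each library, 3 NC and 3 CO, 1 point per library. *Mt1*, *Mt2A*, *Gfap* and *Tnfrsf12a* are higher in the 3 CO libraries, and *Isg15*, *Dnaaf3* and *Rfx3* are lower.

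Interferon-stimulated genes were mostly lower in CO ependymal cells. Interferons act through receptors on the cell surface, and many of their target genes carry the interferon-stimulated response element. Of 27 interferon and antigen presentation genes 21 had at least 30 counts, 13 of them lower and 8 higher, with a median of -0.68, and 7 were 2-fold lower and 2 2-fold higher, against 6.8% and 8.78% of all genes. The libraries were separate for 8 genes with CO below NC and for 4 with CO above.

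*Isg15*, a ubiquitin-like protein, was at 207, 67.5 and 93.5 CPM across NC libraries and 36.1, 36.6 and 22 CPM across CO libraries (-2.0, interval -2.05 to -0.80). UMIs of *Isg15* were found in 17 of 54 NC and 5 of 68 CO profiles, and its ratio was -1.37 without NC library 1. *Usp18*, which removes ISG15 from proteins, was at 103, 34.9 and 50.8 NC CPM and 23.7, 18.9 and 16.5 CO CPM (-1.73, interval -2.35 to -0.59). *Dhx58*, a helicase of the RNA-sensing pathway, was at 67.3, 25.6 and 63.9 NC CPM and 12.4, 7.09 and 5.49 CO CPM (-2.68, interval -3.82 to -1.63). In these 3 genes each CO library lay below each NC library, and the lower level was that of few profiles, since most NC profiles held no UMI of *Isg15* either.

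*Mx2*, a dynamin-like antiviral protein, had a log2 ratio of -1.45, interval -2.01 to -0.41, and *Irf7*, the master regulator of type I interferon genes, of -1.27, interval -2.23 to -0.39, the last with overlapping libraries. *Ifi27*, with more counts than the others that were lower, was detected in 54 of 54 NC and 59 of 68 CO profiles, at 2173, 2169 and 2129.7 CPM across NC libraries and 1111, 1079 and 1135 CPM across CO libraries (-0.97, interval -1.05 to -0.83). *Gbp2*, a GTPase induced mainly by interferon gamma, went the other way, at 14.8, 53.5 and 16.4 CPM across NC libraries and 232, 171 and 89.2 CPM across CO libraries (log2 ratio 2.74, interval 2.68 to 4.41; 3.45 without NC library 2). *Ifitm3* was higher as well (0.58, interval 0.58 to 1.02), and the MHC class I light chain *B2m* differed little (0.25). Without the barcodes carrying other cells' markers the median was -0.87 over 20 genes. *Isg15* was then at -3.71, *Usp18* at -2.38, *Dhx58* at -3.39, *Mx2* at -2.31 and *Gbp2* at 2.26. In barcodes with astrocyte markers the list's median was 0.63 and in those with choroid plexus markers -0.12, and the difference between these cells was not tested.

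The promoters of this list are marked by the interferon-stimulated response element. GAAA, any 2 bases and GAAA, on either strand, stood in 14 of 23 promoters matched (60.9%) and in 3.77% of all promoters, which describes genes that were listed for their known response. The 3 shown, with the matches in capitals, are those of *Irf7* and *Ifi27*, which were lower, and of *Gbp2*, which was higher, and all 3 hold the motif.
*Irf7* promoter, chr1:205799974-205800273, strand -: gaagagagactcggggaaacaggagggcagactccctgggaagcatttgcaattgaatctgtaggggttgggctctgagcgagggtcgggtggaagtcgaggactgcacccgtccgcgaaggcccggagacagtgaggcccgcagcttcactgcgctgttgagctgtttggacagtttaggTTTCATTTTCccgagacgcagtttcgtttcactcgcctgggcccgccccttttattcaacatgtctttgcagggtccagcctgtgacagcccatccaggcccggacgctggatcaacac
*Ifi27* promoter, chr6:128355062-128355361, strand +: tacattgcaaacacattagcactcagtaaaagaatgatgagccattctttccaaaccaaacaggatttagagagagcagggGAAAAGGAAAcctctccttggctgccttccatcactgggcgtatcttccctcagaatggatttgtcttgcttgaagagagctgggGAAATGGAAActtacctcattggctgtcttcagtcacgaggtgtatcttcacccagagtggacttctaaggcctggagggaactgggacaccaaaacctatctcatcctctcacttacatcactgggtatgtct
*Gbp2* promoter, chr2:234005477-234005776, strand +: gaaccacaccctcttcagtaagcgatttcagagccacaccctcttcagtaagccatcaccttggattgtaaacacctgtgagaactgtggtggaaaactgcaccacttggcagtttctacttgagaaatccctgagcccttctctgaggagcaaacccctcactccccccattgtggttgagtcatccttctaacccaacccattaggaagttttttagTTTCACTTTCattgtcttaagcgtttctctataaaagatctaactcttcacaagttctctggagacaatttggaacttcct

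Genes induced by glucocorticoids were higher, in part with the barcodes carrying other cells' markers. Over 24 genes the median was 0.60, with 14 higher and 10 lower, 7 of them 2-fold higher and 0 2-fold lower. Without those barcodes the median was 0.16 over 21 genes, with 4 of them 2-fold higher and 2 2-fold lower. Over all genes the shares were 8.78% and 6.8% with those barcodes, and 7.43% and 8.06% without them. *Mt1*, *Mt2A* and *Glul*, described above, are in this list. *Fam107a*, a stress-induced actin regulator, went from 1.61 to 0.94 without them, the NF-kappaB inhibitor *Nfkbia* from 0.89 to 0.16 (-0.60 in the 49 barcodes without any exclusion gene), and the kinase *Sgk1* from 0.68 to -0.23. In barcodes with astrocyte markers the median was 0.69 and with choroid plexus markers 0.32.

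Lists of hypoxia and heme had medians near 0. The gas displaces oxygen from hemoglobin, so targets of the hypoxia-inducible factor were described. Of 30 such genes, 14 were higher and 16 lower, with a median of -0.08 (0.04 without barcodes carrying other cells' markers). *Ldha*, lactate dehydrogenase A, was at 29.6, 4.65 and 31.2 NC CPM and 57.7, 65 and 49.4 CO CPM (1.28, interval 0.88 to 2.89), and *Egln3*, the oxygen-sensing prolyl hydroxylase induced in hypoxia, at 87.1, 74.5 and 82 NC CPM and 163, 137 and 122 CO CPM (0.79, interval 0.12 to 1.03; 1.41 in the 49 barcodes without any exclusion gene). *Ndrg1* turned from 2.50 to -0.65 without those barcodes. The list's median was 0.39 in barcodes with astrocyte markers and 0.35 in those with choroid plexus markers. Of 19 genes for heme breakdown and iron, 7 were higher and 12 lower (median -0.07). The largest difference, below 100 counts and named after its values were seen, was that of the transferrin receptor *Tfrc*, at 1.64, 9.31 and 0 NC CPM and 36.1, 40.2 and 30.2 CO CPM (3.55, interval 1.86 to 9.78; 2.70 without the barcodes carrying other cells' markers), with UMIs in 1 NC and 15 CO profiles. *Cpox*, an enzyme of heme synthesis, was lower (-1.38, interval -2.63 to -1.0), and the ferritin heavy chain *Fth1* was at 0.50.

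Antioxidant genes controlled by NRF2 had a median of 0.04 over 26 genes, with 14 higher and 12 lower. *Gpx1*, glutathione peroxidase 1, was at 191, 228 and 226 CPM across NC libraries and 441, 469 and 438 CPM across CO libraries (1.07, interval 0.79 to 1.42). The CO libraries lay above the NC libraries without overlap. *Prdx1* (0.61, interval 0.44 to 0.74), *Txn1* (0.60, interval 0.46 to 0.83) and *Gsr* (0.83, interval 0.28 to 2.01), which reduce peroxides, disulfides and glutathione, were higher too, with separate libraries. In the 49 barcodes without any exclusion gene *Prdx1* turned to -0.09 and *Gpx1* was at 2.36. The cystine importer *Slc7a11* was lower, at 67.3, 32.6 and 82 NC CPM and 30.9, 29.5 and 6.86 CO CPM (-1.44, interval -2.35 to -0.79), and at -2.36 without the barcodes carrying other cells' markers.

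Stress lists of protein folding leaned lower. The list of the integrated stress response and of unfolded proteins had a median of -0.22 over 26 genes (8 higher, 18 lower), with CO libraries wholly below NC for 8 and above for 3, and 0 past 2-fold. *Ddit3*, the factor CHOP, was at 112, 74.5 and 68.9 NC CPM and 43.3, 39 and 59 CO CPM (-0.90, interval -1.88 to -0.70), and the chaperone *Hyou1* at 113, 142 and 219.7 NC CPM and 92.8, 102 and 74.1 CO CPM (-0.83, interval -1.52 to -0.65; -1.49 in the 49 barcodes without any exclusion gene). Of 22 heat shock genes 8 were higher and 14 lower (median -0.13). The co-chaperone *Bag3* was higher (0.86, interval 0.71 to 1.56; -2.45 in the 49 barcodes without any exclusion gene), and the small heat shock protein *Cryab* was at -0.79 over all barcodes and -1.27 with 1 barcode per profile, interval -1.72 to -0.82, with overlapping libraries.

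Immediate early genes, which respond to activity and also to tissue digestion, had a median of -0.02 over 30 genes, 14 higher and 16 lower. *Fos* was at -0.70 over all barcodes and -0.85 with 1 per profile (interval -0.95 to -0.74), and *Nr4a1* at -1.05 (-1.53 to 0.03; -0.42 without NC library 1). By contrast, *Egr2* (1.64, 11.6 and 3.28 NC CPM and 54.6, 60.3 and 16.5 CO CPM, log2 ratio 3.23, interval 1.52 to 6.58, and 4.20 without NC library 2 and 4.50 without the barcodes carrying other cells' markers) and *Maff* (1.39, interval 0.52 to 2.12) were higher. NF-kappaB components and targets had a median of -0.03 over 23 genes. The gp130 receptor axis, through which interleukin-6 family cytokines act, had a median of -0.50 over 14 genes, 5 higher and 9 lower. In it *Jak2*, a kinase bound to these receptors, was lower (-0.91, interval -1.26 to -0.31). Cell death genes had a median of 0.18 over 19 genes, 12 higher and 7 lower. In this list 6 were 2-fold higher and 1 2-fold lower, against 8.78% and 6.8% of all genes. Of the 6, only 2 had at least 100 counts, *Tnfrsf12a* among them.

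Genes of the ependymal surface and of the fluid differed in single members. Water, ion and solute handling had a median of 0.08 over 20 genes. The sodium pump subunit *Atp1b3* was at 187, 237 and 185 NC CPM and 274, 271 and 328 CO CPM (0.53, interval 0.36 to 1.03), and the potassium-chloride cotransporter *Slc12a4* was lower (-0.58, interval -1.24 to -0.26). Adhesion, junction and polarity genes had a median of -0.01 over 23. Of the planar polarity cadherins that align cilia, *Celsr2* was lower over all barcodes (-0.96, interval -2.58 to -0.69), and *Celsr1* was at -0.84 (-1.47 to -0.29) with overlapping libraries.

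Secreted factors and lipid carriers had 6 genes 2-fold higher and 5 2-fold lower of 22, with a median of 0.22 that became -0.02 without the barcodes carrying other cells' markers. *Bmp6*, a bone morphogenetic protein, was at 122, 270.0 and 172 CPM across NC libraries and 55.7, 60.3 and 70.0 CPM across CO libraries (-1.55, interval -1.92 to -0.94). The lipocalin *Apod* was at 52.6, 126 and 50.8 NC CPM and 24.7, 16.5 and 20.6 CO CPM (-1.77, interval -3.49 to -1.56) and *Enpp2*, autotaxin, at 37.8, 81.5 and 36.1 NC CPM and 23.7, 14.2 and 13.7 CO CPM (-1.46, interval -3.46 to -1.43; -2.20 without the barcodes carrying other cells' markers). Of these 3 genes each CO library was below each NC library. *Cst3*, *Igfbp7* and *Cxcl12* lost most of their difference without the barcodes carrying other cells' markers, going from 1.33 to 0.23, from 1.18 to -0.50 and from 1.54 to 0.52.

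The 12 genes with the lowest ratios were *Dhx58*, *Tnni3*, *Naa16*, *Nkx2-1*, *Oca2*, *Lrrtm4*, *Cpeb1*, *Arhgap24*, *Isg15*, *Acot1*, *Rab30* and *Pgm1*. *Naa16*, an auxiliary subunit of an N-terminal acetyltransferase, was at 110.1, 161 and 149 NC CPM and 36.1, 16.5 and 23.3 CO CPM (-2.41, interval -3.46 to -1.95). *Nkx2-1*, a factor that patterns the ventral forebrain and hypothalamus, was at 67.3, 41.9 and 32.8 NC CPM and 11.3, 13 and 2.75 CO CPM (-2.35, interval -3.23 to -0.55), with UMIs in 16 NC and 5 CO profiles. All 12 stayed below -1 without the barcodes carrying other cells' markers, from -3.71 to -1.65. A low number of profiles stands behind several of these values.

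Genes on the lists of other cells differed between the groups as well and were kept apart. The choroid plexus gene *Ttr* was at -1.24, against -1.33 in barcodes with astrocyte markers and 0.09 in barcodes with choroid plexus markers. The hemoglobin gene *Hba-a1* turned from -1.56 to 0.64 without the barcodes carrying other cells' markers and was -0.21 without NC library 1. *Pomc*, a pituitary and hypothalamic hormone precursor, was at 1.70 over all barcodes and 2.23 with 1 barcode per profile, and at 0.83 without CO library 2. Its ratio was 1.83 without the barcodes carrying other cells' markers (106 NC and 378 CO CPM). UMIs of *Pomc* were found in 27 of 54 NC and 45 of 68 CO profiles.

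Ependymal barcodes also varied among themselves. Thinned to 4000 UMIs, which left 320 barcodes and left out 16, the variance over the mean had a median of 1.51 over 6511 genes. *Fth1*, *Apoe*, *Hba-a1*, *Pomc* and *Cst3* were among the genes that varied most, of which *Hba-a1* and *Pomc* are on lists of other cells, and *Hcrt* ranked 13.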

How the data were processed

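The deposited values are unnormalized UMI counts, made by the authors with Cell Ranger against Rnor_6.0, per the submitters' processing notes, for 15227 genes here (no version is given in the sources used here). The cell rule, the gene lists and the rules for named genes were chosen with earlier results of these data known, and the alternatives with 1 barcode per profile or without other cells' markers were chosen after seeing the data. Counts were summed per group and scaled with TMM (edgeR 4.0.16, R 4.3.3). Genes with at least 30 counts over both groups were compared, and 2-fold counts within the gene lists are over these. The main count of 2-fold genes over all genes, and the rules for named genes, took at least 100 counts. No test was made, since each group is 1 sample. Named genes were the 12 highest and 12 lowest with separate libraries, the 4 members of each list with the largest ratio among those with 100 counts, and the 20 most set apart from other barcodes. Other genes named were chosen after their values were seen, and some genes under these rules are not reported here. A count of 0 was set to 3 over the group. Intervals (scipy 1.17.1) are 95% exact binomial. On simulated counts for the CO over NC comparison, run on 9529 genes, they covered the simulated ratio in 95.6% of 9329 genes without a change, in 97% of 100 with a 2-fold and in 96% of 100 with a 4-fold change. In the measured data the intervals still cover counting error only, not differences between cells or rats. Doublets were called with Scrublet (scanpy 1.11.5) and removed only as an alternative; in CO replicates 1 and 3 the caller marked 2 barcodes each, so the highest 6% of scores were taken there. Barcodes with at least 3 of 6 astrocyte markers, or at least 2 choroid plexus markers, were set beside ependymal ones.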

Additional observations from a re-analysis of the deposited data

How the results depend on the processing

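The share ratio of 1.38 was between 1.26 and 1.48 under the marker number, UMI minimum, thinning, doublet, exclusion and profile alternatives, and between 1.27 and 1.48 with a library left out. The 561 genes at least 2-fold apart in ependymal cells became 1485 at a minimum of 30 counts, 2966 with no minimum, 9 when thinned to 1000 UMIs, 148 with no exclusion marker allowed, 177 with 1 barcode per profile and 148 with 1 per profile and without other cells' markers, settings that test more or fewer genes. They were 439 to 542 with a library left out and 482 to 579 under the others. The median log2 ratio of all genes, 0.02, was 0.11 with no exclusion marker, -0.033 with total counts in place of TMM and 0.01 to 0.04 with a library left out. Without other cells' markers the log2 ratios turned to -0.11 for *Cldn5*, 0.64 for *Hba-a1*, -0.41 for *Hspb1*, -0.45 for *Itm2a* and -0.65 for *Ndrg1*, and with 1 barcode per profile as well to 0.79 for *Hba-a1*, -0.35 for *Hspb1* and -0.48 for *Itm2a*. With no exclusion marker, which left 49 barcodes, *Gfap* was at -1.33 and *Lgalsl* at -1.80. Of 61 named genes still comparable there, 34 moved and 25 did not by more than the spread between libraries. The cause was not tested. Under each other alternative, no named gene that was 2-fold apart and still had 30 counts turned direction, among 33 genes when thinned, 127 with 1 barcode per profile and 128 or 129 in the rest. The gene lists were less stable. Of 23 list results, 16 moved with no exclusion marker and 9 with 1 barcode per profile and without other cells' markers. When thinned to 1000 UMIs, 11 of 21 moved, and under the other alternatives 0 to 4 did. If the libraries were taken as separate rats, edgeR's quasi-likelihood test would call 1057 of 8052 genes (514 higher, 543 lower, Benjamini-Hochberg adjusted p under 0.05; 2224 at an unadjusted p under 0.05), 877 with the replicate number as a block, 1521 with no filter, 746 by DESeq2's Wald test and 525 to 1268 with a library left out. These calls were not used, since near-copies are shared between libraries. Deviations of same-numbered libraries had correlations of -0.015, -0.058 and -0.023. Since libraries of a group share near-copies, these values cannot show whether the replicate numbers paired the samples. Depth limits genes below 30 counts.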
